A study of Homo sapiens with 9 samples.

Results

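The transcripts of 8 enzymes of haem synthesis, ALAS1, ALAS2, ALAD, UROS, UROD, CPOX, PPOX and FECH, were followed through cells labelled NB4 and given a compound or its solvent. The members were chosen by name, as enzymes of this pathway, out of the 26830 genes in the deposited tables, and all 8 had enough reads to be tested. Other enzymes of the pathway were not analysed here. NB4 is a human line from an acute promyelocytic leukaemia, although the labels give the cell type as acute monocytic leukaemia. Polyadenylated RNA was sequenced after 48 h in 3 groups of 3 libraries each, FB23-2, FB23 and DMSO, the solvent control. According to the series title, the compounds were used to inhibit FTO, an RNA demethylase. No label gives a dose, which leaves the comparison of the compounds matched in time but of unknown match in dose. Whether the 3 libraries of a group come from separate cultures is not stated, and the p-values below measure the spread between these libraries, which may be technical.

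Haem is made in a chain of steps that begins and ends in the mitochondrion and passes through the cytosol in between. The first step, catalysed by an aminolevulinate synthase, sets the rate: ALAS1 serves most tissues and is held down by haem itself, whereas ALAS2 is the form of red cell precursors, driven by erythroid transcription factors and, through an iron-responsive element in its mRNA, by iron. Precursors of red cells make most of the haem of the body, and the other enzymes of the chain are present in all nucleated cells and raised in that lineage.

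With FB23-2 the pathway did not move as one. ALAS1, ALAD and CPOX rose, ALAS2, UROS, UROD, PPOX and FECH fell, with the largest changes in UROD, which fell 3.10-fold, and ALAS1, which rose 2.50-fold. The order of that pair depends on the scale, ALAS1 being the larger in TPM and with upper-quartile factors. With FB23 ALAS2 rose 1.42-fold, PPOX and CPOX were lower by 1.24-fold and 1.11-fold, the second a call that most other settings lost, and the other 5 enzymes did not pass the test. ALAS2 therefore stood on opposite sides of DMSO with the compounds, and ALAS1 exceeded ALAS2 in the FB23-2 libraries alone.

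These counts were read against the rest of the transcriptome, which moved widely with FB23-2. A gene is called here where edgeR's adjusted p, taken over all 13365 tested genes, is under 0.05. FB23-2 against DMSO had 8 of 8 enzymes called, 3 higher and 5 lower, where 82.6% of all tested genes were called, 41.3% higher and 41.3% lower. FB23 against DMSO had 3 of 8 called, 1 higher and 2 lower, where 23.5% of all tested genes were called, 12.3% higher and 11.2% lower. FB23-2 against FB23 had 8 of 8 called, again 3 higher and 5 lower, where 81.5% of all tested genes were called, 40.4% higher and 41.1% lower. With most genes called in both FB23-2 comparisons, the number of enzymes called there says little about the pathway in particular. The median log2 fold change over the enzymes was -0.80 with FB23-2 against DMSO, -0.051 with FB23 against DMSO and -0.72 with FB23-2 against FB23, and over all tested genes it was 0.010, 0.0040 and 0.0021. Regardless of sign, the median size of the log2 fold change over all tested genes was 0.73, 0.14 and 0.66 in the same order. Both comparisons with DMSO use the same 3 control libraries.

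**Figure D1:**
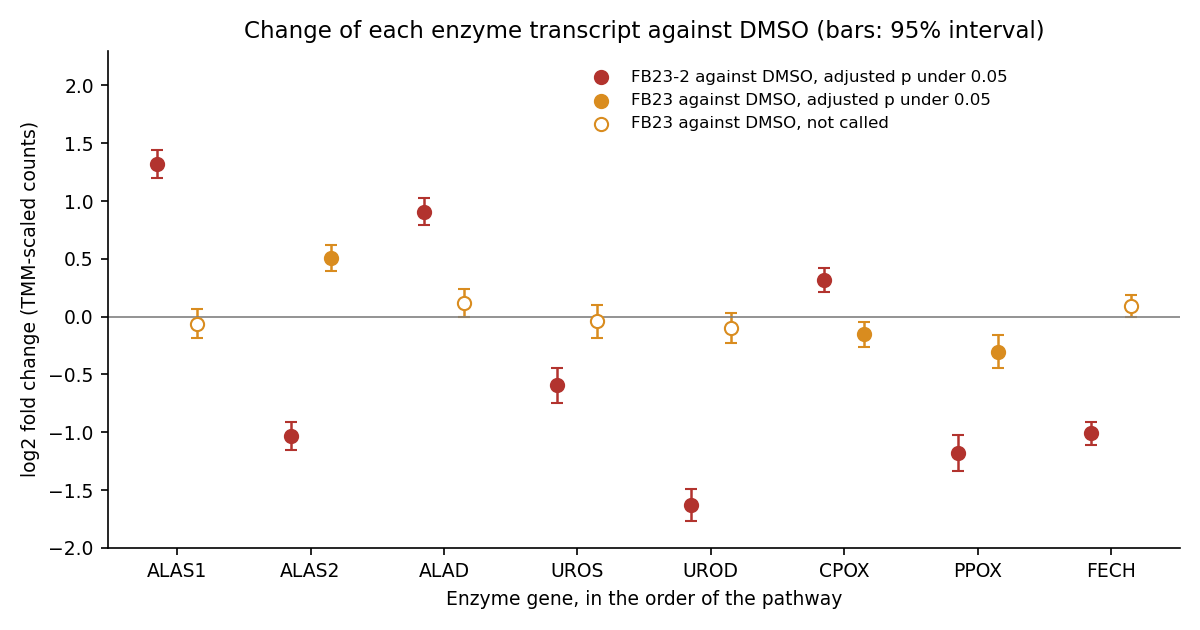
The log2 fold change of each enzyme on TMM-scaled counts (vertical axis) is given for the enzymes in pathway order (horizontal axis), with FB23-2 against DMSO in red and FB23 against DMSO in orange; bars are 95% intervals and open points did not reach an adjusted p under 0.05. Red points lie on both sides of 0, from 1.32 for ALAS1 to -1.63 for UROD, whereas the orange points lie between -0.31 for PPOX and 0.51 for ALAS2.

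Expected counts summed to between 12360291 and 38410750 per library, and the enzymes had between 280 counts (UROS, FB23-2 replicate 3) and 14391 counts (UROD, FB23 replicate 3) in a library. Most of the listed globins and several other red cell genes were abundant, whereas the 7 listed granule genes were at or near 0. The cells are called by their label, and their identity was not tested. The 20 erythroid markers summed to 4542 to 5081 TPM (a transcript level scaled for length and library) with FB23-2, 32433 to 34741 TPM with FB23 and 28653 to 30257 TPM with DMSO, with 16, 17 and 17 of 20 at 1 TPM or more and AHSP, a chaperone of alpha globin, at 0 counts. Of 7 granule markers MPO, CTSG, LTF and CAMP had 0 counts, and the list summed to 1.05 to 1.77 TPM with FB23-2, 0.23 to 0.78 TPM with FB23 and 0.76 to 1.56 TPM with DMSO. The 6 monocyte and macrophage markers summed to 60.5 to 67.2 TPM with FB23-2, 8.01 to 9.42 TPM with FB23 and 9.36 to 10.5 TPM with DMSO. Of these ITGAX, LYZ and CD68 averaged 18.75, 11.4 and 33.5 TPM with FB23-2 and 0.067, 4.35 and 5.06 TPM with DMSO. CD14 averaged 0.28 TPM with FB23-2 and 0.37 TPM with DMSO, and FCGR3A and CSF1R were near 0. The 5 epithelial and hepatocyte markers, mostly the keratins KRT8 and KRT18, summed to 2296 to 2436 TPM with FB23-2, 661.9 to 680.2 TPM with FB23 and 586.9 to 590.5 TPM with DMSO. In the same list EPCAM went the other way, at 25.5 TPM with FB23-2, 54.2 TPM with FB23 and 73.5 TPM with DMSO on average, and ALB and APOA1 were near 0. The 5 megakaryocyte markers summed to 4.76 to 5.76 TPM with FB23-2, 1.69 to 1.85 TPM with FB23 and 1.33 to 2.34 TPM with DMSO. Among them PF4, PPBP and GP9 were at 0. Lymphoid markers summed to at most 1.42 TPM, with MS4A1 at 0. The summed erythroid, monocyte and megakaryocyte levels and the keratins differed between FB23-2 and the other groups, as the enzymes did. Their part in the enzymes' changes was not tested. In such bulk RNA, fewer cells of a type and less RNA per cell cannot be told apart.

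The levels of the enzymes differed by more than an order of magnitude. TPM is scaled for length, so they can be set side by side as far as the 1 transcript record of each gene holds in these cells. FECH was scaled to a record of 7260 bases and UROS to a non-coding record. Without scaling for length, FECH averaged 108.2 CPM (counts scaled to a common TMM-adjusted total) with DMSO and ALAS2 99.0 CPM, the reverse of their order in TPM. UROD, which removes carboxyl groups from uroporphyrinogen in the cytosol, was the most abundant in every group, at 38.6% to 41.9% of the summed TPM of the 8 enzymes with FB23-2, 61.3% to 63.3% with FB23 and 65.8% to 66.4% with DMSO. The sum itself was 459, 482 and 458.5 TPM with FB23-2, 724, 755 and 768 TPM with FB23, and 749, 739 and 765 TPM with DMSO. Each FB23-2 sum was below each of the other 6, and the FB23 and DMSO sums overlapped. UROD, the largest part of the sum, averaged 189 TPM with FB23-2, 469 TPM with FB23 and 496 TPM with DMSO. The lower sum is thus no measure of the other enzymes. Of these ALAS1, ALAD and CPOX rose with FB23-2, and ALAS2, UROS, PPOX and FECH fell.

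In FB23-2 libraries the order by mean TPM was UROD, ALAS1, CPOX, ALAS2, ALAD, UROS, PPOX and FECH, and no neighbours in it overlapped. In FB23 libraries it was UROD, ALAS2, CPOX, PPOX, UROS, ALAS1, FECH and ALAD, where CPOX overlapped PPOX and PPOX overlapped UROS. In DMSO libraries it was UROD, ALAS2, PPOX, CPOX, UROS, ALAS1, FECH and ALAD, with no overlap between neighbours. ALAS1 thus held the sixth place with FB23 and with DMSO and the second with FB23-2, while FECH, which stood above ALAD with FB23 and DMSO, was the lowest with FB23-2.

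**Figure D2:**
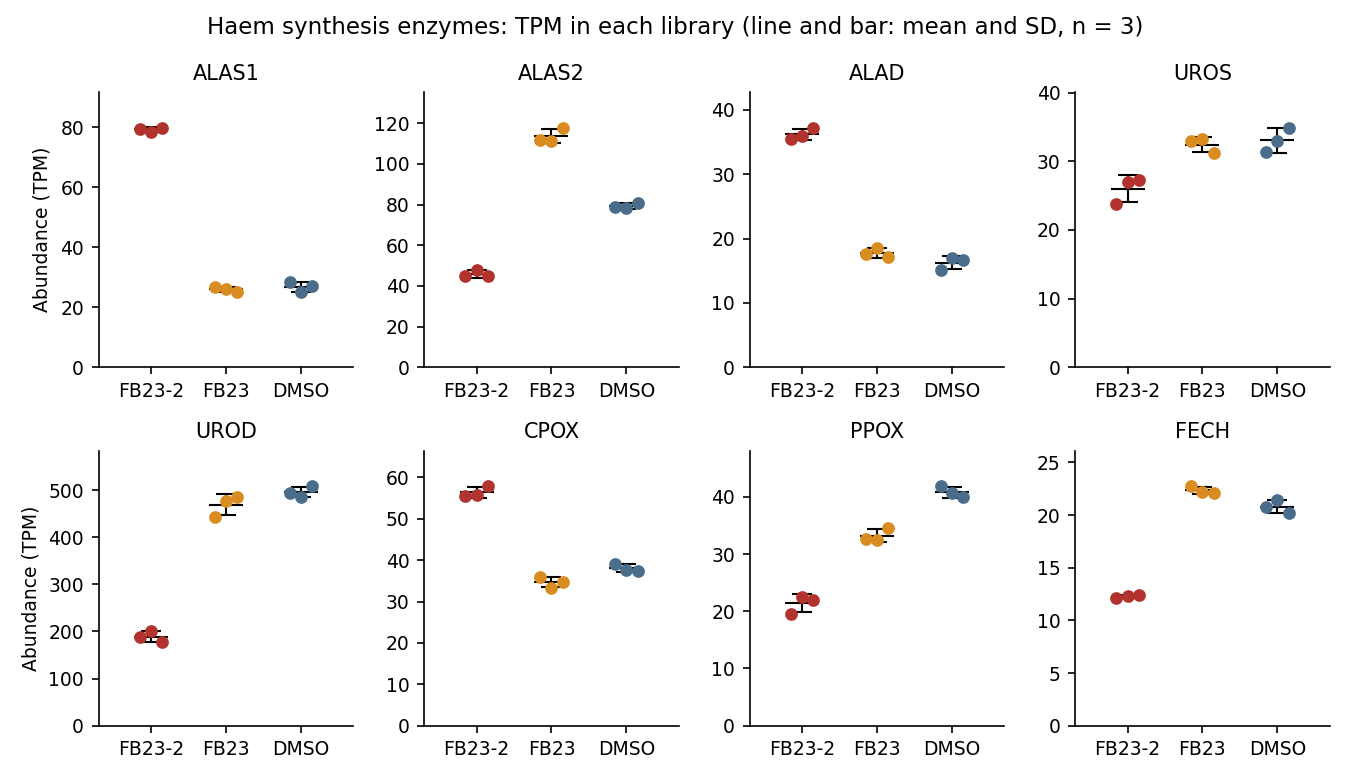
Abundance in TPM (vertical axis, starting at 0 and scaled separately for each enzyme) is shown for every library of the FB23-2, FB23 and DMSO groups; points are libraries, and the line and bar are the mean and SD of 3. The FB23-2 libraries stand above both other groups for ALAS1, ALAD and CPOX and below them for ALAS2, UROS, UROD, PPOX and FECH, and FB23 stands above DMSO for ALAS2, at 113.7 against 79.3 TPM.

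The aminolevulinate synthases join glycine and succinyl-CoA in the mitochondrial matrix. ALAS1 lies on chromosome 3, from 52198086 to 52214327 on the plus strand, and ALAS2 on chromosome X, from 55009055 to 55031064 on the minus strand (GRCh38, GENCODE release 29). Because these genes moved in opposite directions with FB23-2, the 250 bases before their start sites are printed here, 5′ to 3′ on the gene's strand, from RefSeq on GRCh38.p14, with motif matches in capitals. The ALAS2 stretch is chrX:55030978-55031227 (minus strand) and the ALAS1 stretch is chr3:52197833-52198082 (plus strand).
ALAS2: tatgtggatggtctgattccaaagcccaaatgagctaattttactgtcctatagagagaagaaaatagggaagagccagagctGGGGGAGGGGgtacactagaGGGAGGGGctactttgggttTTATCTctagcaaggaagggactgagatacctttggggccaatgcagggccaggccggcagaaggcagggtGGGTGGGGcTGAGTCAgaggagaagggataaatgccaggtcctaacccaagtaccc
ALAS1: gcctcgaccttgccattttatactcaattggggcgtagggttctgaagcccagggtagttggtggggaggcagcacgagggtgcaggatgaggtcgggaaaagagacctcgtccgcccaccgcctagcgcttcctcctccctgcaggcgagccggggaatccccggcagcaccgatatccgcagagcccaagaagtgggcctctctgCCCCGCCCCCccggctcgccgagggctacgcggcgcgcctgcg

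Windows from 250 bases before to 50 bases after the start site were searched on both strands for a GATA factor motif spelled AGATAA, a KLF motif spelled CCNCNCCC, the motif of AP-1 and NF-E2 spelled TGAGTCA, the palindromic NRF1 motif and the E-box CACGTG, to which MYC binds. Positions are counted from the start site, with those before it negative. The ALAS2 window held 1 GATA match, on the opposite strand, at -127, together with 4 KLF matches, of which those at -167 and -165 overlap, and 1 AP-1 match at -47. The ALAS1 window held no GATA and no AP-1 match, 2 overlapping KLF matches at -43 and -41, and 1 NRF1 match that begins at 22, inside the transcript and past the printed stretch. Among 35116 windows of the same length, the GATA motif was in 10.3%, the KLF motif in 56.2%, the AP-1 motif in 4.95%, the NRF1 motif in 1.24% and the E-box in 7.26%. A match is only a stretch of letters, and binding was not measured. Windows were found for 7 of the 8 enzymes, all but UROS, and the E-box letters were in none of them.

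ALAS1, the synthase of most tissues, stood at 79.6, 78.5 and 79.8 TPM with FB23-2, 26.7, 26.2 and 24.9 TPM with FB23, and 28.4, 24.9 and 26.9 TPM with DMSO. Every FB23-2 library was far above the other 6, whose values overlapped. It rose with FB23-2 by 1.32 ± 0.057 on the log2 scale against DMSO (SE, TMM-scaled counts, edgeR adjusted p = 4.01e-13, 2.50-fold) and by 1.38 ± 0.056 against FB23 (adjusted p = 1.9e-13). With FB23 its log2 fold change against DMSO was -0.061 ± 0.060, with a 95% interval from -0.19 to 0.065 (edgeR adjusted p = 0.505).

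ALAS2, the synthase of red cell precursors, stood at 44.8, 47.9 and 44.9 TPM with FB23-2, 112, 111 and 118 TPM with FB23, and 78.6, 78.5 and 80.9 TPM with DMSO. The groups were ordered without any overlap, with FB23 at the top and FB23-2 at the bottom. It fell with FB23-2 by 1.04 ± 0.057 on the log2 scale against DMSO (edgeR adjusted p = 1.18e-11, 2.05-fold) and by 1.54 ± 0.056 against FB23 (adjusted p = 4.34e-14, 2.91-fold). With FB23 it rose by 0.51 ± 0.053 against DMSO (edgeR adjusted p = 5.92e-06, 1.42-fold). That rise placed ALAS2 in the top 9.32% of all tested genes by the size of the log2 fold change with FB23, the highest place of any of the 8 enzymes in that comparison.

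The balance between the synthases was followed as the ratio of ALAS1 to ALAS2 in TPM, chosen after the values were seen. The ratio was 1.78, 1.64 and 1.78 with FB23-2, 0.238, 0.235 and 0.212 with FB23, and 0.361, 0.317 and 0.333 with DMSO. ALAS1 thus made up 62.1% to 64.0% of the summed TPM of the pair with FB23-2, 17.5% to 19.2% with FB23 and 24.1% to 26.5% with DMSO. No group overlapped another. The ratio differed by 2.36 on the log2 scale for FB23-2 against DMSO, by -0.56 for FB23 against DMSO and by 2.92 for FB23-2 against FB23. An exact two-sided permutation test gave p = 0.1 for each, the smallest that 20 regroupings of 3 against 3 libraries can give.

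**Figure D3:**
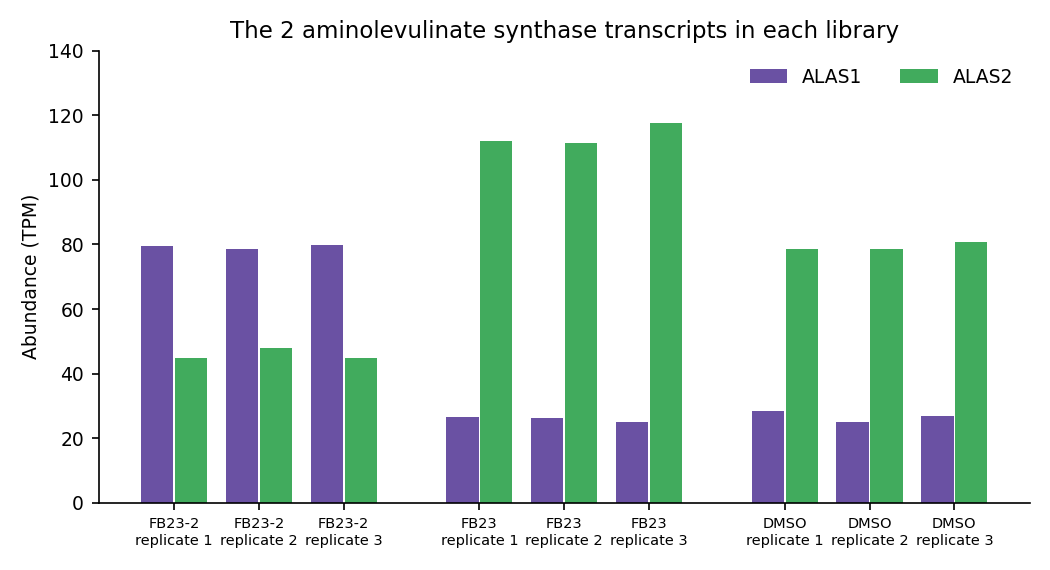
Bars give the abundance in TPM (vertical axis, from 0) of ALAS1 in purple and ALAS2 in green in each of the 9 libraries (horizontal axis, FB23-2, FB23 and DMSO). ALAS1 is the taller bar in the 3 FB23-2 libraries, at 78.5 to 79.8 TPM, and the shorter one in the other 6, where it stands at 24.9 to 28.4 TPM.

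By a root mean square difference in log2 CPM (counts scaled to a common TMM-adjusted total) over the 9 libraries, each gene centred on its DMSO mean, the 5 genes nearest to ALAS1 among 11385 compared were LOC100507412 (0.0655), EZR (0.072), CCNY (0.0815), TGM2 (0.0821) and WDR37 (0.0845). Their log2 fold changes ran from 1.26 for TGM2 to 1.41 for EZR with FB23-2 against DMSO and from -0.096 for TGM2 to 0.022 for WDR37 with FB23 against DMSO. The 5 nearest to ALAS2 were SLC25A10 (0.101), SRI (0.109), GAMT (0.128), MID1IP1 (0.130) and NQO2 (0.134). These ran from -1.17 for MID1IP1 to -0.84 for NQO2 with FB23-2 against DMSO and from 0.33 for MID1IP1 to 0.46 for NQO2 with FB23 against DMSO. The ALAS2 neighbours were farther from it than any of the 5 ALAS1 neighbours was from ALAS1, and the log2 fold change of each with FB23 was below the 0.51 of ALAS2. These distances share the 9 libraries and their scaling and are a description.

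The next steps take place in the cytosol. ALAD, which joins molecules of aminolevulinate into the pyrrole porphobilinogen and is the enzyme that lead blocks, lies on chromosome 9 from 113386317 to 113401333 (minus strand). It stood at 35.5, 36.0 and 37.2 TPM with FB23-2, 17.7, 18.6 and 17.1 TPM with FB23, and 15.1, 17.0 and 16.7 TPM with DMSO. The FB23-2 libraries were all above the others, and the FB23 libraries lay just above those of DMSO. ALAD rose with FB23-2 by 0.91 ± 0.056 on the log2 scale against DMSO (edgeR adjusted p = 6.18e-11, 1.88-fold) and by 0.79 ± 0.054 against FB23 (adjusted p = 2.94e-10). With FB23 the log2 fold change against DMSO was 0.12 ± 0.058 (95% interval -0.0035 to 0.24) and missed the threshold (edgeR adjusted p = 0.154), although the groups did not overlap.

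UROS, which closes the linear tetrapyrrole into uroporphyrinogen III, lies on chromosome 10 from 125784980 to 125823285 (minus strand). In the deposited tables its reads were counted against 1 RefSeq transcript whose accession type marks it as non-coding, so the value is that of the UROS locus as this record covers it. UROS stood at 23.8, 27.0 and 27.2 TPM with FB23-2, 32.9, 33.2 and 31.2 TPM with FB23, and 31.3, 32.9 and 34.9 TPM with DMSO. The FB23-2 libraries were below all others, and FB23 and DMSO overlapped. It fell with FB23-2 by 0.59 ± 0.072 on the log2 scale against DMSO (edgeR adjusted p = 6.05e-07, 1.51-fold) and by 0.55 ± 0.070 against FB23 (adjusted p = 1.1e-06). With FB23 the log2 fold change against DMSO was -0.041 ± 0.068 (95% interval -0.19 to 0.10, edgeR adjusted p = 0.716). UROS had the fewest reads of the 8, 280 to 916 counts per library.

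UROD, whose loss of function gives porphyria cutanea tarda in people, lies on chromosome 1 from 45012147 to 45015575 (plus strand). It stood at 188, 202 and 177 TPM with FB23-2, 444, 478 and 485 TPM with FB23, and 494, 486 and 508 TPM with DMSO. The highest FB23-2 library was below the lowest FB23 library by more than the whole range within either group. UROD fell with FB23-2 by 1.63 ± 0.065 on the log2 scale against DMSO (edgeR adjusted p = 1.31e-13, 3.10-fold) and by 1.54 ± 0.0645 against FB23 (adjusted p = 3.32e-13, 2.90-fold). It was in the top 18.1% of all tested genes by the size of the log2 fold change with FB23-2 against DMSO, so many other genes moved more. With FB23 the log2 fold change against DMSO was -0.095 ± 0.062 (95% interval -0.23 to 0.035, edgeR adjusted p = 0.292), and the groups were apart in TPM but overlapped on TMM-scaled counts. With trends on GC content and length removed, a setting added after the data were seen, that change was called (log2 fold change -0.12, edgeR adjusted p = 0.0169, against 0.0169 to 0.69 over the 21 settings tried).

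In this stretch of the chain ALAD therefore rose with FB23-2, whereas UROS and UROD, which act later, both fell. The ratio of ALAD to UROD in TPM, also chosen after the values were seen, was 0.189, 0.178 and 0.210 with FB23-2, 0.0398, 0.0389 and 0.0352 with FB23, and 0.0305, 0.0349 and 0.0328 with DMSO. Its mean was 5.87-fold that of DMSO with FB23-2 (log2 difference 2.55) and 1.16-fold with FB23 (log2 difference 0.21). The exact two-sided permutation p was 0.1 for both, again the smallest possible. The ratio of UROD to UROS, chosen in the same way, was 7.93, 7.48 and 6.51 with FB23-2, 13.5, 14.4 and 15.6 with FB23, and 15.8, 14.8 and 14.6 with DMSO. With FB23-2 it lay below both other groups (log2 difference -1.05 against DMSO, exact permutation p = 0.1, the smallest possible), while FB23 overlapped DMSO (log2 difference -0.057, exact permutation p = 0.4).

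The last steps return to the mitochondrion. CPOX, which oxidises coproporphyrinogen between the mitochondrial membranes, lies on chromosome 3 from 98579446 to 98593723 (minus strand). The 250 bases before its start site, chr3:98593612-98593861 on the minus strand (RefSeq, GRCh38.p14), are shown because they hold 2 GATA matches, both on the opposite strand, at -207 and -125, while CPOX and ALAS2 moved in opposite directions with FB23-2. Capitals mark those and 2 KLF matches. The GATA letters were in 10.3% of all windows searched, and a link between the matches and the directions was not tested.
CPOX: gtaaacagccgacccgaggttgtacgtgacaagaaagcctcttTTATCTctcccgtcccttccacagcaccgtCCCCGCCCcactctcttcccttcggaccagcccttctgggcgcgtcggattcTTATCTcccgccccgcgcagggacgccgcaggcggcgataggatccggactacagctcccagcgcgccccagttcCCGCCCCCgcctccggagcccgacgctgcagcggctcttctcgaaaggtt

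CPOX stood at 55.6, 55.8 and 57.8 TPM with FB23-2, 35.9, 33.4 and 34.8 TPM with FB23, and 39.2, 37.7 and 37.3 TPM with DMSO. No group overlapped another, with FB23-2 the highest and FB23 the lowest. It rose with FB23-2 by 0.32 ± 0.051 on the log2 scale against DMSO (edgeR adjusted p = 1.7e-05, 1.25-fold) and by 0.47 ± 0.050 against FB23 (adjusted p = 1.26e-07). In TPM, on which the median over all genes is also shifted, the FB23-2 mean was 1.48-fold the DMSO mean. With FB23 CPOX fell by 0.15 ± 0.051 against DMSO (edgeR adjusted p = 0.0412). That call was lost in 13 of 21 other settings, with adjusted p from 0.0146 to 0.212, among them the fits that left out 1 of the libraries DMSO 1 to 3, FB23 1 and 2 or FB23-2 1 and 2. Without FB23 replicate 2 the log2 fold change of CPOX was -0.11 (edgeR adjusted p = 0.212), and without DMSO replicate 1 it was -0.12 (edgeR adjusted p = 0.19).

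PPOX, which oxidises protoporphyrinogen at the inner membrane and is the target of diphenyl ether herbicides in plants, lies on chromosome 1 from 161166410 to 161178013 (plus strand). It stood at 19.6, 22.5 and 22.0 TPM with FB23-2, 32.7, 32.5 and 34.5 TPM with FB23, and 41.8, 40.6 and 39.9 TPM with DMSO. The groups did not overlap, and both compounds were below DMSO, FB23-2 the further. PPOX fell with FB23-2 by 1.18 ± 0.073 on the log2 scale against DMSO (edgeR adjusted p = 5.87e-11, 2.27-fold) and by 0.88 ± 0.072 against FB23 (adjusted p = 3.71e-09). With FB23 it fell by 0.31 ± 0.068 against DMSO (edgeR adjusted p = 0.00375), a call that held in all 21 other settings. Of its 2 promoter windows, the second held 1 GATA match, on the opposite strand at -63.

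FECH, which inserts iron into protoporphyrin and in mammals carries an iron-sulphur cluster, lies on chromosome 18 from 57548283 to 57586772 (minus strand). It stood at 12.1, 12.3 and 12.4 TPM with FB23-2, 22.7, 22.2 and 22.1 TPM with FB23, and 20.8, 21.4 and 20.2 TPM with DMSO. The FB23-2 libraries were the lowest, and the FB23 libraries lay above those of DMSO with no overlap. FECH fell with FB23-2 by 1.01 ± 0.048 on the log2 scale against DMSO (edgeR adjusted p = 1.39e-12, 2.01-fold) and by 1.10 ± 0.047 against FB23 (adjusted p = 4.24e-13). With FB23 the log2 fold change against DMSO was 0.089 ± 0.045 (95% interval -0.0067 to 0.18), which did not pass (edgeR adjusted p = 0.174).

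Across the 8 enzymes, the libraries of FB23-2 and DMSO did not overlap for any on TMM-scaled counts, where 84.2% of all tested genes had no overlap. Between FB23 and DMSO 5 enzymes did not overlap, ALAS2, ALAD, CPOX, PPOX and FECH, where 37.9% of all tested genes had none. Between FB23-2 and FB23 again 8 did not, where 81.2% of all tested genes had none. The scale bears on the sizes with FB23-2, as seen in the difference of each gene's log2 fold change from that on TMM-scaled counts. For FB23-2 against DMSO the median difference over all genes was 0.17 with upper-quartile scaling, 0.15 with library totals and 0.24 in TPM. For FB23-2 against FB23 it was 0.17, 0.13 and 0.23. The enzymes shifted in the same direction, so that falls were smaller and rises larger on those scales, and each of the 8 kept its direction and its call in both FB23-2 comparisons in all 21 other settings.

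The genes around the enzymes were read in 6 lists, assembled from known roles in the pathway. With FB23-2 against DMSO the larger part of every list was lower, except that under other scalings the carriers had 5 to 6 of 10 lower, the iron-sulphur list 6 to 10 of 13 and the breakdown list 5 to 6 of 11, and with FB23 against DMSO at most 2 members of any list were called in a direction, although other scalings, filters, tests or libraries left out took that to as many as 5. The counts and medians follow, to be read against the shares and the median sizes of change over all tested genes given above.

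Among 10 mitochondrial carriers and transporters of haem precursors, 2 were higher and 7 lower with FB23-2 against DMSO (median log2 fold change -0.52), 2 higher and 0 lower with FB23 against DMSO (-0.039), and 2 higher and 7 lower with FB23-2 against FB23 (-0.49). With FB23 the count of 2 higher was 1 whenever a library was left out, except FB23-2 replicate 3, and with GC content and length trends removed 2 were also lower. TSPO, an outer membrane protein that binds porphyrins, fell by 1.95 ± 0.098 on the log2 scale with FB23-2 against DMSO, and SLC25A39, a mitochondrial carrier of glutathione, by 1.19 ± 0.057. FAM210B, a mitochondrial protein tied to FECH activity in red cell precursors, rose by 0.73 ± 0.043 (edgeR adjusted p = 2.87e-11), in the direction opposite to FECH. ABCB6, a transporter of porphyrins, rose by 0.32 ± 0.053 with FB23 against DMSO (edgeR adjusted p = 0.000415). FAM210B was also called with FB23, at 0.13 ± 0.043 (adjusted p = 0.0413), and that call was lost in 11 of 21 other settings (adjusted p 0.00936 to 0.166), as when DMSO replicate 3 was left out (0.10, adjusted p = 0.166).

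The supply of glycine and succinyl-CoA, the substrates of the synthases, was represented by 8 genes. With FB23-2 against DMSO 1 was higher and 7 were lower (median -0.73), with FB23 against DMSO 1 was higher and 0 lower (0.043), and with FB23-2 against FB23 1 was higher and 7 lower (-0.73). The 1 higher there, OGDH, was at 0.15 ± 0.051 (edgeR adjusted p = 0.0121) and was not called without FB23-2 replicate 2 (0.13, adjusted p = 0.0532) or with no filter on low counts (0.091, adjusted p = 0.139), each of which left 0 higher, and stood at -0.079 with GC content and length trends removed. SUCLG2 and SUCLG1, subunits of succinyl-CoA ligase, fell by 1.41 ± 0.099 and 1.07 ± 0.044 with FB23-2 against DMSO. OGDH, the first subunit of the complex that makes succinyl-CoA, rose by 0.47 ± 0.052 with FB23-2 and by 0.32 ± 0.052 with FB23 against DMSO (edgeR adjusted p = 1.77e-07 and 0.00033). DLD, another subunit of that complex, fell by 1.07 ± 0.047 with FB23-2 against FB23 (edgeR adjusted p = 6.74e-13).

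Iron-sulphur cluster assembly, which uses the same mitochondrial iron as FECH, was read in 13 genes. With FB23-2 against DMSO 0 were higher and 10 lower (median -0.47), with FB23 against DMSO 1 was higher and 1 lower (-0.033), and with FB23-2 against FB23 0 were higher and 12 lower (-0.43). These counts moved with the scale, to 6 to 10 lower and 0 to 3 higher with FB23-2 against DMSO and to 6 to 10 lower and 0 to 1 higher with FB23-2 against FB23. HSPA9, a mitochondrial chaperone of cluster transfer, stood at 143, 145 and 153 TPM with FB23-2, 432, 419 and 388 TPM with FB23, and 457, 479 and 452 TPM with DMSO. Each FB23-2 library was far below the others, and the FB23 libraries lay below those of DMSO without overlap. HSPA9 fell by 1.91 ± 0.043 on the log2 scale with FB23-2 against DMSO (edgeR adjusted p = 7.83e-17) and by 0.18 ± 0.041 with FB23 against DMSO (edgeR adjusted p = 0.00419). BOLA3, a late factor of cluster delivery, fell by 2.60 ± 0.15 with FB23-2 against DMSO, and both falls were larger than that of any of the 8 enzymes. NFU1, which hands on clusters, rose by 0.32 ± 0.070 with FB23 against DMSO (edgeR adjusted p = 0.00358).

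The branch that modifies haem for the respiratory chain, COX10, COX15 and HCCS, had 0 higher and 3 lower with FB23-2 against DMSO (median -1.25), 0 called with FB23 against DMSO (-0.089) and 0 higher and 3 lower with FB23-2 against FB23 (-1.09). COX10, which begins the making of haem a, fell by 1.58 ± 0.082, and HCCS, which attaches haem to cytochromes c, by 1.25 ± 0.073 with FB23-2 against DMSO (edgeR adjusted p = 5.13e-12 and 2.66e-11).

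Haem breakdown, export and uptake had 13 members, of which 11 were tested. With FB23-2 against DMSO 3 were higher and 6 lower (median -0.44), with FB23 against DMSO 2 were higher and 0 lower (0.034), and with FB23-2 against FB23 2 were higher and 6 lower (-0.36). With FB23 the count of 2 higher ran from 0 without DMSO replicate 3 to 3 without FB23 replicate 1, and was 1 without DMSO replicate 1 or 2 or FB23 replicate 2 or 3. HMOX1, the inducible haem oxygenase, was too low to test, with 7 counts over the 9 libraries. The biliverdin reductases moved apart: BLVRB averaged 219.8 ± 9.87 TPM with FB23-2, 615 ± 53.9 TPM with FB23 and 577.5 ± 13.2 TPM with DMSO (SD, n = 3 each), and fell by 1.63 ± 0.078 with FB23-2 against DMSO, while BLVRA rose by 0.46 ± 0.064 (edgeR adjusted p = 1.68e-12 and 3.16e-06). FLVCR1, a plasma membrane transporter of haem and choline, rose by 0.66 ± 0.050 with FB23-2 against DMSO, and HEBP2, a haem-binding protein, fell by 1.47 ± 0.13. With FB23 the calls of SLC48A1, which moves haem out of lysosomes (0.24 ± 0.071, edgeR adjusted p = 0.0214), and SLC46A1, a carrier of folate and haem (0.18 ± 0.063, adjusted p = 0.0424), were weak: SLC46A1 was lost in 11 of 21 other settings (adjusted p 0.0188 to 0.149) and SLC48A1 without DMSO replicate 3 (0.19, adjusted p = 0.11).

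Regulators of haem synthesis had 12 members, of which 11 were tested. With FB23-2 against DMSO 1 was higher and 9 lower (median -0.80), with FB23 against DMSO 0 were higher and 2 lower (-0.054), and with FB23-2 against FB23 1 was higher and 8 lower (-0.47). The FB23 count came to 1 higher and 5 lower with GC content and length trends removed and to 1 higher and 3 lower without FB23 replicate 3. KLF1, an activator of red cell genes, stood at 21.4, 25.5 and 24.6 TPM with FB23-2, 251, 239.6 and 278 TPM with FB23, and 298, 277 and 283 TPM with DMSO. It fell by 3.84 ± 0.082 on the log2 scale with FB23-2 against DMSO (edgeR adjusted p = 4.68e-17), the largest fall among the members of the 6 lists called in that comparison. GATA1, an activator of ALAS2 in red cell precursors, stood at 148.5, 157 and 152 TPM with FB23-2, 267, 271 and 285 TPM with FB23, and 286, 279 and 281 TPM with DMSO, and fell by 1.08 ± 0.053 with FB23-2 against FB23 (edgeR adjusted p = 2.75e-12). BACH1, a repressor that haem releases from DNA, rose by 0.62 ± 0.071 with FB23-2 against DMSO (edgeR adjusted p = 2.94e-07).

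NR1D1 and NR1D2, the REV-ERB receptors, bind haem and repress transcription. NR1D1 stood at 5.10, 4.63 and 3.55 TPM with FB23-2, 6.16, 5.65 and 5.99 TPM with FB23, and 10.2, 8.41 and 10.2 TPM with DMSO, so both compounds lay below DMSO without overlap. It fell by 1.33 ± 0.13 on the log2 scale with FB23-2 and by 0.71 ± 0.12 with FB23 against DMSO (edgeR adjusted p = 3.3e-08 and 0.000493). NR1D2 fell by 0.58 ± 0.13 with FB23 against DMSO (edgeR adjusted p = 0.00326). PPARGC1A, a coactivator of ALAS1 in mouse liver, had 2 counts over the 9 libraries and was not tested.

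**Figure D4:**
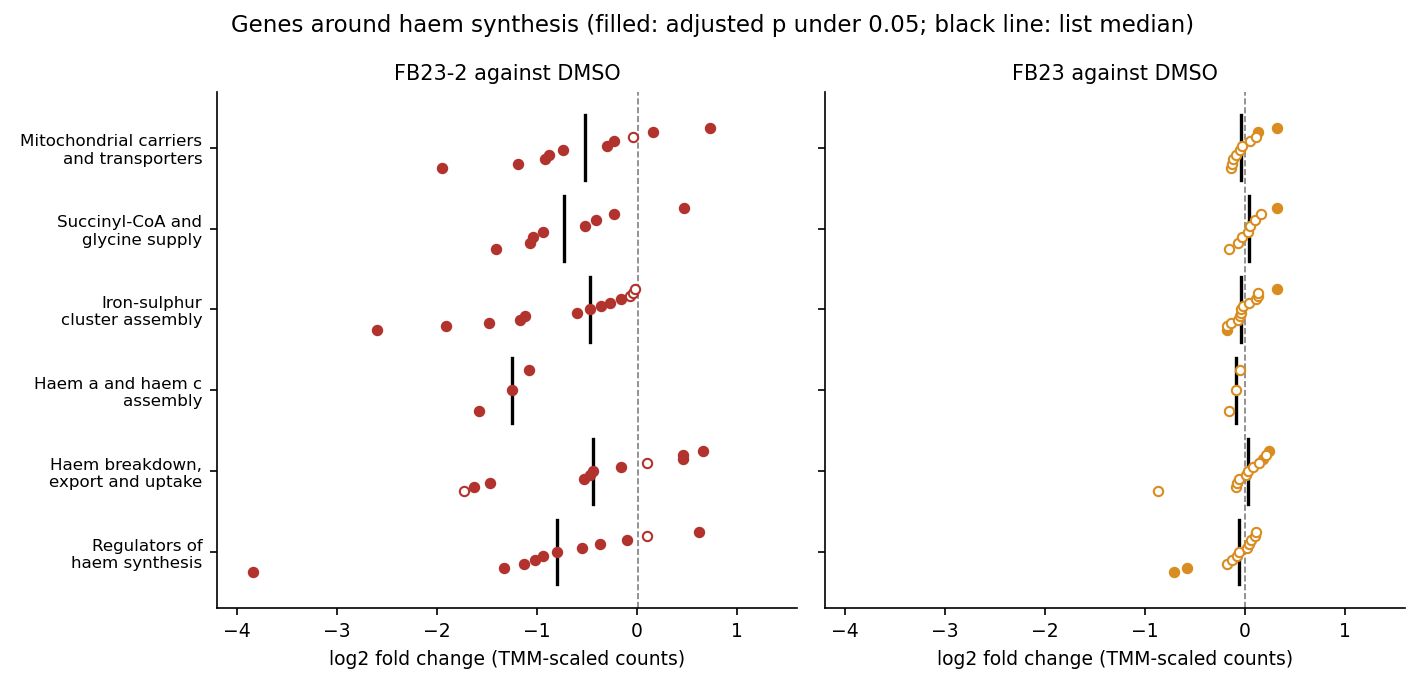
Each point is the log2 fold change on TMM-scaled counts (horizontal axis) of 1 tested gene of the 6 lists (vertical axis), with FB23-2 against DMSO on the left and FB23 against DMSO on the right; filled points have an adjusted p under 0.05, black lines are list medians and the dashed line is the median over all tested genes. With FB23-2 the list medians lie between -1.25 and -0.44, and with FB23 between -0.089 and 0.043. Regardless of sign, the median size of the change over all tested genes was 0.73 with FB23-2 and 0.14 with FB23 against DMSO.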

How the data were processed

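RNA was sequenced from 9 libraries of cells labelled NB4, 3 each with FB23-2, FB23 and DMSO. The deposited tables give, per gene, the expected count estimated by RSEM, the TPM (scaled for length and library) and the FPKM, per the file headers. RSEM 1.2.31 and GRCh38 are named in the submitters' processing notes. Each gene has 1 RefSeq transcript in the tables, with the same length in all 9, so transcript use could not be followed. No source used here names the aligner, the strand setting or a filter.

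The expected counts were rounded, then tested with edgeR 4.0.16 (quasi-likelihood, TMM factors, R 4.3.3). Filtering with filterByExpr (minimum count 10, minimum total 15) kept 13365 genes, and all 9 libraries shared 1 fit with a common biological coefficient of variation of 5.12%. P-values are two-sided, with Benjamini-Hochberg adjustment across the tested genes. Each SE is the size of the log2 fold change over the square root of the F statistic of the test. The 95% intervals are built from that SE. TMM factors were 1.05 to 1.08 with FB23-2, 0.965 to 0.988 with FB23 and 0.954 to 0.965 with DMSO. Coordinates are from GENCODE release 29.

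Alternatives were DESeq2 1.42.0, limma 3.58.1 (voom, and trend on log2(TPM + 0.5) or log2(TPM + 0.1)), other scalings, other filters, fits of the 6 libraries of a comparison alone, a block on the replicate number, and each library left out in turn. Removal of GC content and length trends was added after the data were seen (GC content known for 98.4% of tested genes). The members, the lists of surrounding genes and markers, and the tests were chosen with earlier results of these data known. In each list the 2 highest and 2 lowest called genes of a comparison could be named, along with all 8 enzymes and the 5 genes nearest to ALAS1 and to ALAS2 among those whose mean log2 CPM was 1 or more. Some genes that met the rule are left out of the text, and low genes were named where they could not be tested. A gene of the iron-sulphur list is not reported here.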

Additional observations from a re-analysis of the deposited data

How the results depend on the processing

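Over 24 results of the 8 enzymes in 3 comparisons and 21 alternatives each, 490 of 504 values kept their direction and their side of the threshold, 13 lost the call (all CPOX with FB23 against DMSO), 1 gained it (UROD with FB23 against DMSO, GC content and length trends removed) and 0 reversed. With FB23 against DMSO 2 to 3 enzymes were called with a library left out, 2 with the replicate block and 4 with GC content and length trends removed. The genes called there ran from 2096 to 3303 with a library left out and came to 4555 with those trends removed, against 3144. In both FB23-2 comparisons 8 enzymes were called in every alternative, with 10740 to 11293 genes called against DMSO and 10556 to 10980 against FB23 when a library was left out.

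No pair of libraries with the same replicate number reached a correlation of 0.1 in their deviations, so the numbers were not taken to pair the libraries. Between FB23 and DMSO (0.0867, 0.0806 and 0.0619) and between FB23-2 and DMSO (0.0856, 0.041 and 0.0331) each library correlated best with its own number, a hint of pairing from the data, whereas between FB23-2 and FB23 the values were 0.0156, -0.0055 and -0.156. With the replicate block 10883 genes were called for FB23-2 against DMSO, 2504 for FB23 against DMSO and 10705 for FB23-2 against FB23, and CPOX with FB23 against DMSO missed the threshold (-0.15, edgeR adjusted p = 0.0738).

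In TPM with a pseudocount of 0.5, 6757 called genes were higher and 4260 lower with FB23-2 against DMSO, instead of 5523 and 5518, and 6621 higher and 4130 lower with FB23-2 against FB23, instead of 5395 and 5495. With GC content and length trends removed, 40.4% of called genes were higher with FB23 against DMSO, instead of 52.4%. Of 945 values for the surrounding genes named by rule, 913 kept their call, 31 lost it and 1 reversed: OGDH with FB23-2 against FB23 stood at -0.079 on the log2 scale (edgeR adjusted p = 0.0587) with GC content and length trends removed, instead of 0.15. The cause was not tested. Depth limited UROS to 280 to 916 counts per library.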
